A study of Mus musculus with 3 samples.

Results

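The Notch receptors Notch1, Notch2, Notch3 and Notch4, the ligands Dll1, Jag1 and Jag2 and the target genes Hes1, Hey1 and Heyl were examined in normal mouse muscle. A probe set, the group of short probes that reads the 3' end of a transcript on the array, was taken where its annotation named exactly one of these genes. This gave 18 probe sets of the 10 genes, out of 20393 probe sets that name a single gene and 12394 genes in all. Dll1, Hes1 and Hey1 had 1 probe set each, Heyl had 3, and the remaining 6 genes had 2.

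The samples were 3 arrays of muscle from littermate controls aged 3 to 6 weeks, called muscle 1, muscle 2 and muscle 3, all of the same group. The study used them as the normal reference for tumours derived from Pax7-expressing satellite cells, and asked how tumours formed in vitro and in vivo relate to each other and to other sarcomas. Tumour arrays were not analysed here, so no treated or mutant group stands against these muscles. The treatment note on every sample describes 4-hydroxytamoxifen injected into the hindlimb to induce tumours. It does not say whether the control littermates received it, and the labels give neither the muscle taken nor the alleles the littermates carried. Whether the 3 muscles stem from different animals is not in the labels. SDs and p-values below therefore describe how far these arrays lie apart, and part of that may be technical.

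Notch signalling passes between touching cells. A Delta or Jagged ligand on one cell binds a Notch receptor on the next, the receptor is cleaved by the protease Adam10 and then by the gamma-secretase complex, and the freed intracellular part enters the nucleus, where it joins the DNA-binding protein Rbpj and a Mastermind protein to switch on genes such as Hes1, Hey1 and Heyl. In mouse muscle the pathway is known for holding satellite cells in quiescence, and it also acts in the endothelium and smooth muscle of blood vessels. Whole muscle holds all of these cells, and in such bulk RNA fewer cells of a type and less RNA per cell cannot be told apart.

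The sequence before the start of 3 of the genes is shown because they span the calls made below: all probe sets of the receptor gene Notch3 were above background in every muscle, 1 of 2 of the receptor gene Notch1, and 0 of 2 of the ligand gene Jag1. Each run holds the 250 bases before the RefSeq start, 5' to 3' on the strand of the gene in GRCm38.p6. Capitals mark GGGCGG on either strand, the core of the GC box that Sp1-type factors bind.
Notch3, chr17:32166891-32167140, minus strand: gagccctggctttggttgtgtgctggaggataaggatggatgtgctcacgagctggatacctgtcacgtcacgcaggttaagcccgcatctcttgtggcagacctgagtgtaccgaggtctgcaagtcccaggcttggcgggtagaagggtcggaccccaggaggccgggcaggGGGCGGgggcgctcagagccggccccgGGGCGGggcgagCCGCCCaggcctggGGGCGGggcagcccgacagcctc
Notch1, chr2:26503823-26504072, minus strand: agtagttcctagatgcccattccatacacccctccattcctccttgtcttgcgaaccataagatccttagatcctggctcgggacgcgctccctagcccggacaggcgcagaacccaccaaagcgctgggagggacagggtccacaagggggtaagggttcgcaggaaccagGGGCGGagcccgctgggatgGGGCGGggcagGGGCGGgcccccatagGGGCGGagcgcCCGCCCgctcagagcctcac
Jag1, chr2:137116521-137116770, minus strand: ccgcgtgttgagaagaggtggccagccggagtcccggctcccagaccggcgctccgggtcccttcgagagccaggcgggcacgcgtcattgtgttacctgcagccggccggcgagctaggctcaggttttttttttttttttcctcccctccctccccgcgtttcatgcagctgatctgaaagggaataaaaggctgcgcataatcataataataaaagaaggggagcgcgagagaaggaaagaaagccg

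The Notch3 window held 4 matches to GGGCGG and that of Notch1 held 5, the nearest beginning 23 and 20 bases before the start. The Jag1 window held 0. Among windows for 7 of the 10 genes, matched by symbol and with 2 starts for Dll1, 4 of 8 held the motif, against 32.7% of 32851 RefSeq windows of the same length. Those 4 belonged to Notch1, Notch2, Notch3 and Jag2, and in Jag2 a pair of matches overlapped. The letters TGGGAA, the core that Rbpj binds, were searched on both strands as well. They were in 0 of the 8 windows and in 21.6% of all windows. The median GC content of all windows was 52.4%, and the 8 windows ran from 56% (Dll1) to 87.2% (Jag2). Neither motif share was matched for GC content. Hes1, Hey1 and Heyl had no window here. These matches describe the letters only, and their part in any level was not tested.

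Levels are log2 RMA values, on which a step of 1 is a doubling. A probe set is called above background where it exceeds a level set in each muscle from 32 genes that mark other organs, such as testis, pancreas and kidney, as the 95th percentile of their 49 probe sets. The levels obtained were 5.95, 6.19 and 6.17 for muscles 1, 2 and 3. Of the 18 Notch probe sets, 9 were above it in all 3 muscles, 4 in none and 5 in 1 or 2 muscles. Over all probe sets that name 1 gene, 48.5% were above it in all 3 muscles and 45.7% in none, so the Notch count lay near the share of the whole array. By gene, 7 of 10 had a probe set above background in every muscle, against 55.7% of all genes. Probes differ in how strongly they bind, so levels were not ranked between genes. The background calls carry this limit too, since they set each probe set against those of the organ genes. A probe set below background therefore does not show that its gene was silent.

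**Figure D1:**
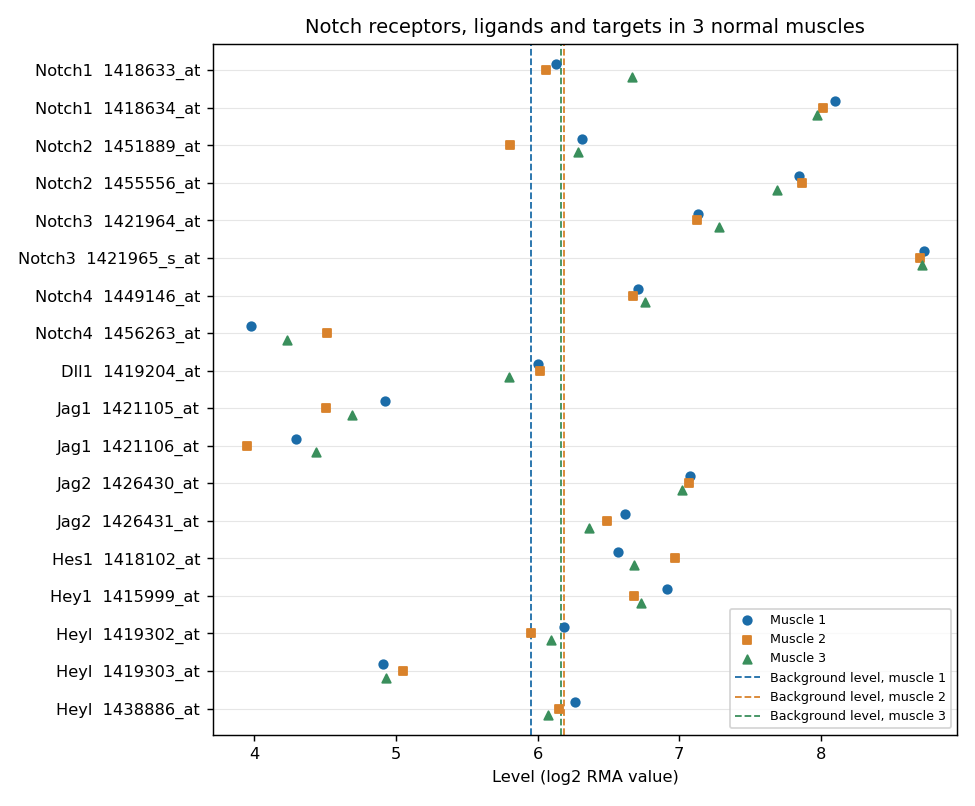
Level of each of the 18 Notch probe sets (rows) on the log2 RMA scale (horizontal axis), with 1 point per muscle and dashed lines at the background level of each muscle. Both probe sets of Notch3 and Jag2 lie to the right of all 3 lines, both of Jag1 to the left, while Dll1 and 2 Heyl probe sets are above the line of their own muscle in muscle 1 only.

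Of the receptors, Notch3 was above background in both of its probe sets. Notch3 is a receptor best known from the smooth muscle of arteries and from pericytes. Its probe set 1421965_s_at was at 8.73, 8.70 and 8.72 in muscles 1, 2 and 3, a mean of 8.71 ± 0.01 (SD, n = 3). The 3 muscles lay within a 1.02-fold range, the narrowest of the 18 Notch probe sets. The second Notch3 probe set, 1421964_at, was at 7.13, 7.13 and 7.28, a mean of 7.18 ± 0.09 (SD, n = 3), with muscle 3 slightly higher than the others.

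Notch1, the receptor most studied in satellite cells, gave a split picture. Its probe set 1418634_at was at 8.10, 8.01 and 7.97 in muscles 1, 2 and 3, a mean of 8.03 ± 0.06 (SD, n = 3), well above background throughout. The other, 1418633_at, was at 6.13, 6.06 and 6.67, a mean of 6.29 ± 0.33 (SD, n = 3), and was above background in muscles 1 and 3 but not in muscle 2. In that probe set muscle 3 stood 0.57 above the mean of the other muscles, whereas in 1418634_at its difference from them was -0.08.

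Notch2 followed the same pattern of 1 steady and 1 dim probe set. Notch2, a receptor closely related to Notch1 that satellite cells also use, was at 7.85, 7.87 and 7.69 in muscles 1, 2 and 3 by probe set 1455556_at, a mean of 7.80 ± 0.10 (SD, n = 3). All 3 values were above background, muscle 3 being the lowest. By 1451889_at it was at 6.31, 5.80 and 6.29, a mean of 6.13 ± 0.29 (SD, n = 3), with muscle 2 below background and at -0.50 from the mean of the others.

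Notch4, a receptor found mainly in endothelium, was above background by probe set 1449146_at, at 6.71, 6.67 and 6.76 in muscles 1, 2 and 3 and a mean of 6.71 ± 0.04 (SD, n = 3). The muscles differed by no more than 1.06-fold there. Its other probe set, 1456263_at, was at 3.97, 4.51 and 4.23, a mean of 4.24 ± 0.27 (SD, n = 3), which is 1.98, 1.67 and 1.94 below the background levels of the same muscles. The call for Notch4 therefore rests on a single probe set.

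Among the ligands, Jag2 was above background in both probe sets and Jag1 in neither. Jag2 was at 7.08, 7.07 and 7.02 in muscles 1, 2 and 3 by 1426430_at, a mean of 7.05 ± 0.03 (SD, n = 3). By 1426431_at it was at 6.62, 6.49 and 6.37, a mean of 6.49 ± 0.13 (SD, n = 3). Both probe sets were highest in muscle 1 and lowest in muscle 3, by 1.04-fold and 1.19-fold.

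Jag1, the ligand of the vessel wall and of many epithelia, was at 4.92, 4.51 and 4.69 in muscles 1, 2 and 3 by 1421105_at, a mean of 4.71 ± 0.21 (SD, n = 3). By 1421106_at it was at 4.30, 3.94 and 4.43, a mean of 4.22 ± 0.25 (SD, n = 3). Both probe sets were lowest in muscle 2, and the value nearest to its background level, that of 1421105_at in muscle 1, was 1.03 below it. Dll1, a Delta ligand that keeps muscle progenitors from differentiating too early in the mouse embryo, was at 6.01, 6.02 and 5.80, a mean of 5.94 ± 0.12 (SD, n = 3). It exceeded background in muscle 1 only, by 0.06, so its detection was not settled at this signal.

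The target genes encode basic helix-loop-helix repressors. Hes1 was at 6.57, 6.97 and 6.68 in muscles 1, 2 and 3, a mean of 6.74 ± 0.21 (SD, n = 3), above background in all. Muscle 2 was 0.34 above the mean of the others, a span of 1.32-fold from lowest to highest. Hey1 was at 6.91, 6.68 and 6.73, a mean of 6.78 ± 0.12 (SD, n = 3), also above background throughout. It was highest in muscle 1, so Hes1 and Hey1 did not have the same muscle on top.

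Heyl, which acts with Hey1 in keeping satellite cells undifferentiated in the mouse, was not above background in every muscle by any of its 3 probe sets. It was at 6.19, 5.95 and 6.10 by 1419302_at in muscles 1, 2 and 3, a mean of 6.08 ± 0.12 (SD, n = 3). By 1438886_at it was at 6.26, 6.15 and 6.07, a mean of 6.16 ± 0.10 (SD, n = 3). Both were above background in muscle 1 alone, where the background level was also the lowest of the 3. The remaining probe set, 1419303_at, was at 4.91, 5.05 and 4.93, a mean of 4.96 ± 0.08 (SD, n = 3), below background in every muscle.

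Several of these calls depend on where the background is drawn. At the 99th percentile of the organ genes 5 of 18 Notch probe sets remained above it in all 3 muscles, against 39.4% of all probe sets: 1418634_at of Notch1, 1455556_at of Notch2, both of Notch3 and 1426430_at of Jag2. With organ genes of a single probe set the same 5 were left, against 39.9% of all. Notch4, Hes1, Hey1 and 1426431_at of Jag2 were lost in both cases. At the 90th percentile, a level added after the data were seen, 13 of 18 were above background, against 53.3% of all, and these included 2 of the 3 Heyl probe sets but neither Dll1 nor Jag1. In the absence of muscle 2, 1418633_at of Notch1 and 1451889_at of Notch2 were above background in both muscles left.

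Over the 14 Notch probe sets above background in at least 1 muscle the SD had a median of 0.109, or 1.08-fold, and over all 11072 such probe sets on the array its median was 0.0858. The Notch median was 0.0863 with muscle 1 left out, where only 11 Notch probe sets were tested. Over 14 probe sets it was 0.0971 with muscle 2 left out and 0.0549 with muscle 3 left out. These medians rest on SDs of 2 arrays, so they are not on a par with those of 3. Spread falls as level climbs, so each SD was set against limma's prior SD for its level. Of the 14, 11 had an SD below the prior SD, as did 58.0% of all tested probe sets. The exceptions were 1418633_at of Notch1, with 1.99 times the prior SD, 1451889_at of Notch2, with 1.57 times, and Hes1, with 1.52 times.

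**Figure D2:**
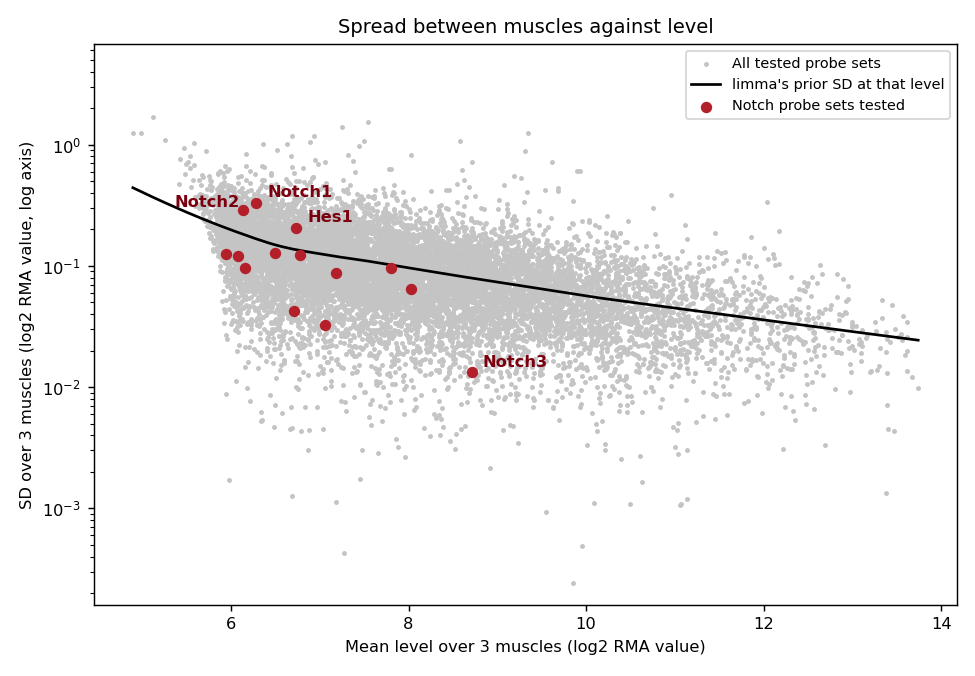
SD over the 3 muscles (vertical, log axis) against mean level (horizontal), both in log2 RMA values, for the 11072 tested probe sets in grey and the 14 Notch probe sets among them in red; the line is limma's prior SD. Notch1, Notch2 and Hes1 each have 1 probe set above the line, and Notch3 has the lowest SD of the 14.

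No Notch probe set passed limma's variance test for more spread than probe sets of like level. The smallest adjusted p was 0.988, for 1418633_at of Notch1 (unadjusted p = 0.081), and 0 of 14 had an unadjusted p under 0.05. Over all tested probe sets 0.108% passed an adjusted p of 0.05 and 4.96% an unadjusted one. With 3 samples, this does not show that the muscles were alike in Notch expression. The range from lowest to highest muscle reached 1.5-fold in 1 of the 14, 1418633_at of Notch1 at 1.52-fold, and in 3.70% of all tested probe sets. No range reached 1.5-fold with muscle 2 or muscle 3 left out.

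In that Notch1 probe set the muscle apart was muscle 3, which was also the muscle farthest from the others in 245 of the 410 probe sets on the array with a range of 1.5-fold or more. Muscle 3 differed in control RNAs too. The 3' minus 5' difference of the added dap transcript was 3.85, 3.60 and 2.63 in muscles 1, 2 and 3, and that of thr was 3.81, 3.66 and 2.66. The 5' signal of 18S ribosomal RNA was 10.96, 11.23 and 11.69. The part of these differences in the Notch1 value was not tested.

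The departure of each muscle, its level minus the mean of the other 2, differed in direction from one Notch gene to the next. Of the 18 probe sets muscle 1 was the highest in 9, muscle 2 in 5 and muscle 3 in 4, while muscle 2 was the lowest in 9. The median departure of the 18 was 0.08, -0.02 and -0.04 in muscles 1, 2 and 3. For the 14 tested ones it was 0.08, -0.02 and -0.06, against 0.03, 0.01 and -0.04 over all tested probe sets. Dll1 and the Heyl probe sets 1419302_at and 1438886_at were among the 14 through muscle 1 alone, so that median is not free of the filter. Among 9 pairs of probe sets that share a gene, 1 pair, of Jag2, had the same order of muscles, and 0 departed the same way in all 3. The muscle farthest from the others was the same in 1 pair, of Heyl, but in opposite directions. Muscle 2 was at -0.19 in 1419302_at and at 0.13 in 1419303_at.

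**Figure D3:**
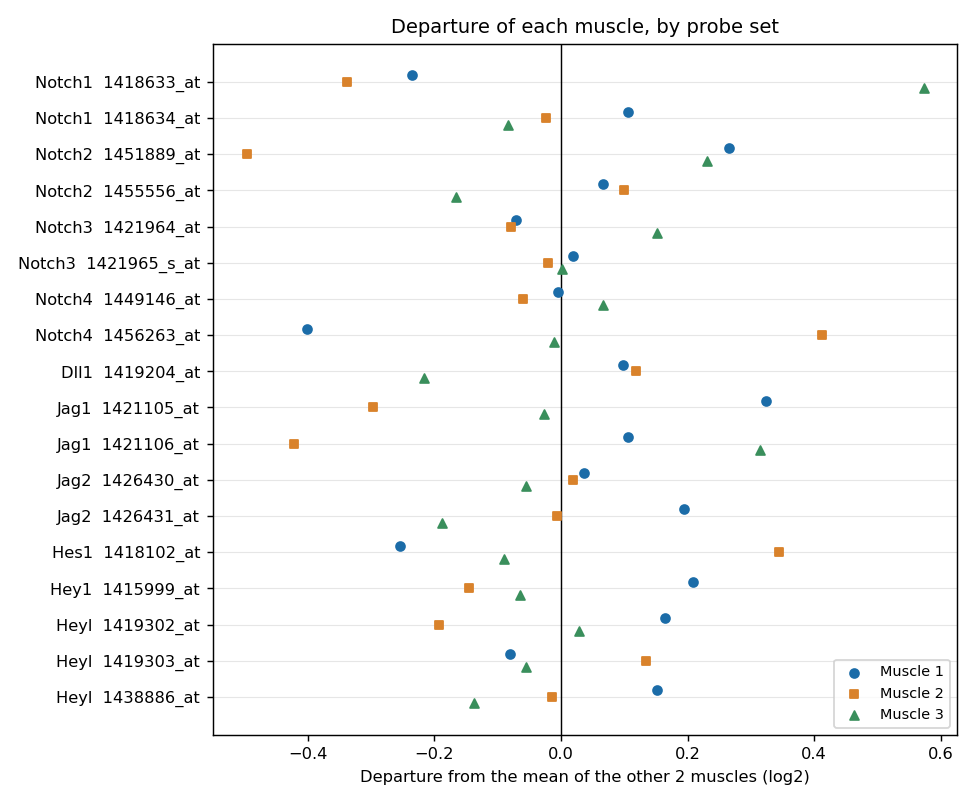
Departure of each muscle from the mean of the other 2 (horizontal, log2) for the 18 Notch probe sets (rows). The points of Notch3 1421965_s_at lie between -0.02 and 0.02 and muscle 3 is at 0.57 in Notch1 1418633_at. Both Jag2 probe sets have muscle 1 on the right and muscle 3 on the left.

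Marker genes of the cell types in muscle were read on the same arrays. The 6 fibre genes, Acta1, Ckm, Myh4, Myh1, Myh2 and Tnnt3, were above background in every muscle. So were 6 of 7 endothelial genes, 6 of 7 of smooth muscle and pericytes, 5 of 5 of fibroblasts and 3 of 6 of satellite cells, beside 55.7% of all genes. The satellite cell genes below background in every muscle were Pax7, Calcr and Chrdl2. In muscle 3 the median departure was -0.12 for the endothelial list and -0.13 for the smooth muscle and pericyte list, and 5 of the 7 genes of each list were lower there than the mean of the others. It was -0.04 over all tested probe sets. Other lists were lower there too: -0.03 for fibres, -0.04 for fibroblasts, -0.25 for 3 lymphocyte genes and -0.54 for 2 adipocyte genes. The lists of satellite cells, macrophages and Schwann cells were at 0.05, 0.01 and 0.03. Single genes ranged widely, from -0.49 for the receptor Kdr to 0.12 for Eng in the endothelial list, while the pericyte gene Cspg4 was at 0.46. These 3 were picked after their values were seen. Notch4 was highest in muscle 3 by its probe set above background, and the part of these cell types in any Notch value was not tested.

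The rest of the pathway was measured with 49 of 57 listed genes, each by its probe set with the highest mean. A gene called detected in this way may have other probe sets below background. Of the 49 genes, 34 were above background in all 3 muscles (69.4%), 12 in none and 3 in some, against 55.7% of all genes. The same 55.7% stands beside the count of each group below. The cleavage machinery was detected without exception, in 6 of 6 measured genes. Adam10, which makes the first cut after ligand binding, was at 9.21, 9.22 and 9.21 in muscles 1, 2 and 3, a mean of 9.21 ± 0.01 (SD, n = 3). Of the other genes of this group, the protease Adam17 averaged 7.71 ± 0.14, and the gamma-secretase subunits Psen2 and Ncstn averaged 7.27 ± 0.05 and 6.63 ± 0.18 (SD, n = 3).

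The nuclear partners were mostly detected as well, in 5 of 6 genes. Rbpj was at 7.11, 7.16 and 7.24 in muscles 1, 2 and 3, a mean of 7.17 ± 0.07 (SD, n = 3), and the co-activator Maml1 averaged 7.27 ± 0.12. Snw1, a splicing factor that also binds the Rbpj complex, averaged 8.96 ± 0.07, while Maml2 was below background at 3.23 ± 0.08. Of the co-repressors 6 of 7 were detected, among them Spen at 6.87 ± 0.02, Ctbp1 at 10.90 ± 0.02, Ctbp2 at 8.04 ± 0.16 and Tle1 at 7.41 ± 0.13.

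Of 7 other ligands and ligand-like genes 3 were above background in every muscle. Dll3 and the endothelial Delta ligand Dll4 were below it at 5.30 ± 0.07 and 5.78 ± 0.41, and the Delta-like gene Dlk2 was below it at 5.95 ± 0.18. Dlk1, an imprinted Delta-like gene active in growing muscle, was above it at 7.37 ± 0.08.

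The group listed as other targets held 7 genes, namely further Hes and Hey family members and Nrarp, a feedback inhibitor of Notch. Whether each of them is switched on by Notch was not tested. Of the 7, 2 were detected throughout: Hes6 at 6.98 ± 0.01 and Nrarp. Nrarp was at 6.12, 6.69 and 6.71 in muscles 1, 2 and 3, a mean of 6.51 ± 0.33 (SD, n = 3), a range of 0.59 on the log2 scale, with muscle 1 lowest. The other Nrarp probe set did not repeat this order. It was at 6.02, 5.99 and 6.31, a range of 0.32, with muscle 2 lowest and below background. The other Hes6 probe set was above background in muscle 3 only. Hes2 and Hes3 were below background in all muscles, at 4.45 ± 0.23 and 4.49 ± 0.12, and Hes5 was above it in muscle 1 only, at 5.97 ± 0.27.

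Genes that adjust the pathway were detected in counts near the share of 55.7% of all genes. For ligand uptake it was 2 of 3 measured genes. Mib2 and Neurl1a were above background at 7.24 ± 0.10 and 8.90 ± 0.09, and Mib1 was below it in every muscle, at 4.92, 4.86 and 5.96. Of the genes that glycosylate or mature the receptor 4 of 6 were detected, with Poglut1 at 7.33 ± 0.05 and the Fringe gene Mfng at 6.39 ± 0.18. Mfng exceeded background in muscle 2 by only 0.0075. Pofut1, which adds fucose to Notch, was below background at 5.03 ± 0.20, and the Fringe gene Lfng, at 6.06 ± 0.08, was above it in muscle 1 only.

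Negative regulators were above background in 6 of 7 cases, 1 of them by only 0.0075 in muscle 2. The Notch antagonist Numb averaged 7.97 ± 0.04, and the ubiquitin ligases Itch and Fbxw7, which promote Notch turnover, averaged 8.31 ± 0.09 and 8.71 ± 0.04. Numbl, related to Numb, was at 6.24 ± 0.21 and below background in muscle 2. Of the 49 genes, 37 had a probe set in limma's variance test, and 0 of them passed, with a smallest adjusted p of 0.988. Of the 54 probe sets of the 37 genes in that test, 2 had an unadjusted p under 0.05, of Adam17 and Furin. Over all tested probe sets the share was 4.96%. The Adam17 probe set was not the one with the highest mean, given above. It was at 6.03, 6.03 and 6.71 in muscles 1, 2 and 3, and below background in muscle 2. Furin, the protease that matures the receptor, was named after its values were seen.

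**Figure D4:**
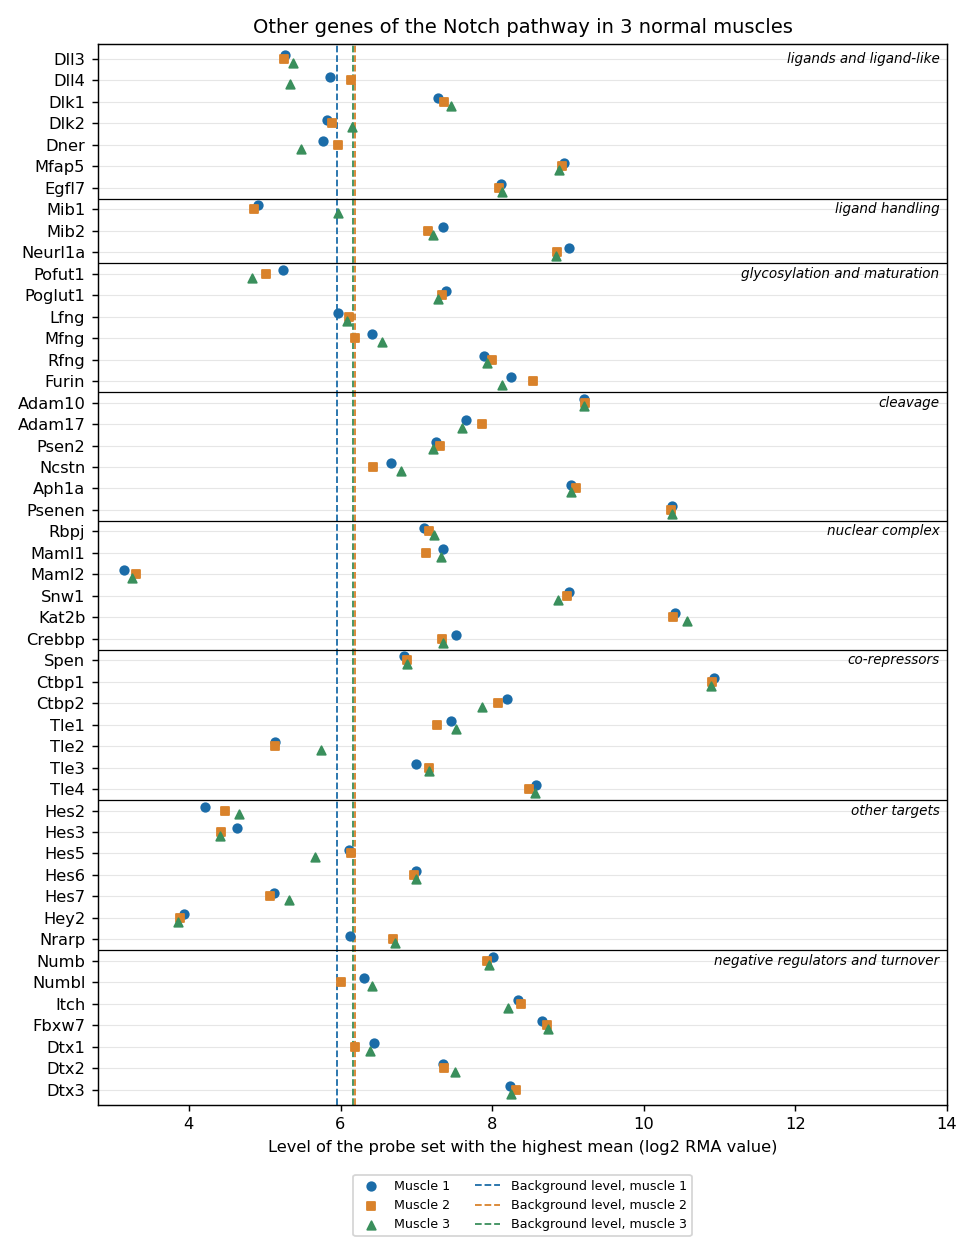
Level of 49 other genes of the Notch pathway (rows, grouped by role) on the log2 RMA scale, each by its probe set with the highest mean, with 1 point per muscle and dashed lines at the background levels. All cleavage genes lie to the right of the lines, whereas 4 of 7 genes listed as other targets lie to the left of the lines in every muscle.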

How the data were processed

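RNA of 3 normal muscles was measured on a 3' expression array, 1 array each, after Trizol extraction and labelling from 500 ng RNA, per the labels' protocols. The log2 values were deposited by the authors, 1 per probe set and array, after RMA per the submitters' processing notes, which corrects background, quantile-normalizes the arrays and summarises probes. The RMA version, and whether other arrays entered the same normalization, are not given in the sources used. Detection calls and probe-level signals were not used here. Gene names came from GEO's platform annotation, and RefSeq symbols in GRCm38.p6 matched for all 18 Notch probe sets through the Entrez number. Of 22690 probe sets, 691 name several genes and 1606 none, and these were left out.

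Spread was tested with limma 3.58.1 (R 4.3.3), where the variance of every probe set above background in at least 1 muscle (2 degrees of freedom) was compared, by a one-sided F test, with a prior fitted robustly with a trend on level, and p-values were adjusted by Benjamini-Hochberg over 11072 probe sets. The test was run on simulated data first. Python 3.11.15, numpy 2.4.6, pandas 2.3.3 and matplotlib 3.10.9 served for other steps.

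The genes and lists were chosen with earlier results of these data known. All probe sets of the 10 genes are named. Other pathway genes are named if among the first 4 measured of their group, called by limma's test, or 1.5-fold in range while above background in all muscles. Precision is limited by the number of arrays. Alternatives were other background levels or none, quantile normalization, median centring, leaving out probe sets matching several transcripts, 1 probe set per gene, other limma settings, a 2-fold limit and leaving out each muscle.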

Additional observations from a re-analysis of the deposited data

How the results depend on the processing

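The count of 9 Notch probe sets above background in all 3 muscles became 5 at the 99th percentile and 5 with organ genes of a single probe set, and the 7 genes with such a probe set became 4 at the 99th percentile. The range of at least 1.5-fold, found in 1 probe set, was found in 0 at the 99th percentile, with 1 probe set per gene and at a 2-fold limit, and in 0 to 1 when a muscle was left out. After quantile normalization the departures of Notch3 1421965_s_at became -0.0103, -0.0423 and 0.0525 in muscles 1, 2 and 3, and that of Jag2 1426430_at in muscle 3 became -0.0225. These 4 of 108 departures moved by more than their SD, and the cause was not tested. Signs changed in 2 departures under that setting, of Notch3 1421965_s_at in muscle 1 and Jag2 1426431_at in muscle 2, both near 0, and muscle 1 was then the highest in 8 of the 18 probe sets. The count of 0 probe sets called by limma's variance test held under each alternative, with adjusted p from 0.933 to 1, and 1 probe set had an unadjusted p under 0.05 without a trend. Over the whole array the test called 12 probe sets. This became 25 after quantile normalization, 18 at the 90th and 8 at the 99th percentile, 17 with no background filter, 6 with 1 probe set per gene, and 1 to 5 when a muscle was left out. It became 0 without a trend, where 389 had an unadjusted p under 0.05, and 0 without the robust option, where 463 did. At the 99th percentile 7 rather than 14 Notch probe sets were tested. The number of other pathway genes above background stayed within 1.5 times its value. Dll1, Heyl and the dimmer probe sets of Notch1 and Notch2 lie near the background level, which limits their detection calls.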
